A study of Mus musculus with 15 samples.

Results

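The regions described here are 744 small closed islands in open chromatin of mouse hepatocytes, autosomal stretches of 2 to 20 kb that were called het in each of 3 genome maps and whose surroundings were mostly called euch. They were chosen from the deposited calls themselves. A run of 2 kb bins het in all 3 maps was taken when at least 60% of the bases within 100 kb were euch on its left and on its right, in every map. The autosomes held 36067 runs het in all 3 maps, of which 26084 were 2 to 20 kb long and 9983 were longer. The 744 islands were 2.85% of the 26084 short runs. The rule can also be read as 60% of both flanks pooled, which gives 1712 islands, 2.30 times as many, and every one of the 744 is among them.

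The maps come from srHC-seq, an assay of sonicated, formaldehyde-fixed chromatin whose DNA fragments are split by size, so that compact chromatin that resists shearing (het) can be told from open chromatin (euch) and from a class between them (int). There were 15 samples in 3 groups of 5, each with both sexes. The groups were wild-type hepatocytes at postnatal day 14 (P14), hepatocytes of P14 mice of genotype Alb-Cre;Ezh1-/-;Ezh2f/f, called the knockout below, and wild-type hepatocytes at 2 months of age. Each group is held in 1 map of the mm9 genome that pools its samples, so no difference between groups could be set against the spread between samples, and no p-value was computed. In the knockout Ezh1 was deleted in the whole mouse, and the albumin promoter drives Cre in hepatocytes, so other liver cells keep Ezh2. Both P14 groups are of the same age, and the labels give no alleles for the wild-type mice. The files hold class calls with no read depth and no expression, so neither the precision of a call nor markers of hepatocytes could be examined.

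EZH1 and EZH2 are the catalytic subunits of PRC2, the Polycomb complex that methylates lysine 27 of histone H3 and keeps developmental genes silent. Such facultative heterochromatin can lie as short stretches between active genes, unlike the long blocks of constitutive heterochromatin, which are marked by methylation of lysine 9 and are rich in repeats. In the liver, hepatocytes mature during the weeks after birth, when fetal and postnatal genes are replaced by adult ones. Which mark the islands carry was not measured in these files.

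The islands were short. Their median length was 6 kb, with quartiles of 4 and 10 kb and a mean of 7.53 kb. There were 67 islands of a single bin, 144 of 4 kb, 177 of 6 kb, 141 of 8 kb and 93 of 10 kb, and 122 were longer than 10 kb, of which 9 reached the limit of 20 kb. Together they covered 5.61 Mb, 0.721% of the 778 Mb that were het in all 3 maps. Short runs outside open surroundings were longer, with a median of 10 kb. Of the runs of 2 kb that were het in all 3 maps, 3.21% were islands, and of those of 4 kb 4.71%, against 2.51% of those of 10 kb and 0.747% of those of 20 kb.

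Closed calls were rare in such surroundings. Bins with at least 60% euch on both sides in all 3 maps, whatever their own class, made up 417.67 Mb, or 16.9% of the autosomes. Of these bins 1.14% were het in all 3 maps, against 31.5% of all autosomal bins, and 81.7% were euch in all 3. The share that was het in a single map was 7.67% in P14 wild type, 5.72% in the knockout and 2.74% at 2 months. Of the het bins with open flanks, those het in all 3 maps were 14.8% in P14 wild type, 19.9% in the knockout and 41.4% at 2 months. Over the whole autosomes the same shares were 69.3%, 68.4% and 68.1%. The bins het in all 3 maps are the same ones in each share. The order of the shares with open flanks thus follows from the het share of each single map and is no separate result. The flanks that define these bins were chosen from the same maps, so the shares are a description.

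The 9 islands of 20 kb show how the calls differ around a constant core. They are taken from the most open flanks down, and the first 5 are drawn. The first, at chr10:13612001-13632000, lay in a het domain of 34 kb in P14 wild type, 24 kb in the knockout and 20 kb at 2 months, with at least 84% euch on either side in all 3 maps. The second, at chr8:55694001-55714000, lay in domains of 24, 24 and 20 kb. On chr6:8070001-8090000 the domains measured 34, 44 and 36 kb, in the same order. At chr7:31042001-31062000 the domains were 20, 40 and 24 kb long, and at chr1:23968001-23988000 they were 28, 40 and 26 kb. The other 4, with less open flanks, had domains of 20, 22 and 24 kb at chr6:138150001-138170000, 30, 34 and 20 kb at chr8:87860001-87880000, 56, 20 and 22 kb at chr11:6110001-6130000, and 28, 34 and 20 kb at chr15:9310001-9330000. No single map had the longest domain at all 9.

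The islands with the most open surroundings were small and, as their choice requires, nearly alone. At chr14:100780001-100788000 an island of 8 kb had at least 98% euch on each side in every map, in het domains of 8 kb in P14 wild type, 12 kb in the knockout and 8 kb at 2 months. At chr5:130624001-130630000 the domains were 8, 8 and 6 kb long, and at 2 months both flanks were euch throughout. At chr12:38090001-38094000 they were 8, 6 and 4 kb, and at chr14:123024001-123028000 they were 4, 6 and 6 kb. With lowest flank shares of 94%, 3 islands tied for the fifth place. Of these chr4:15116001-15122000, which is drawn, had domains of 8, 12 and 10 kb, chr13:90584001-90590000 8, 10 and 8 kb, and chr18:8846001-8852000 6, 10 and 6 kb. In this group the 3 maps differed by at most 4 kb in the length of the closed domain. Flanks of at least 94% euch leave little room for het beyond the island, so this likeness was set by the choice.

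**Figure D1:**
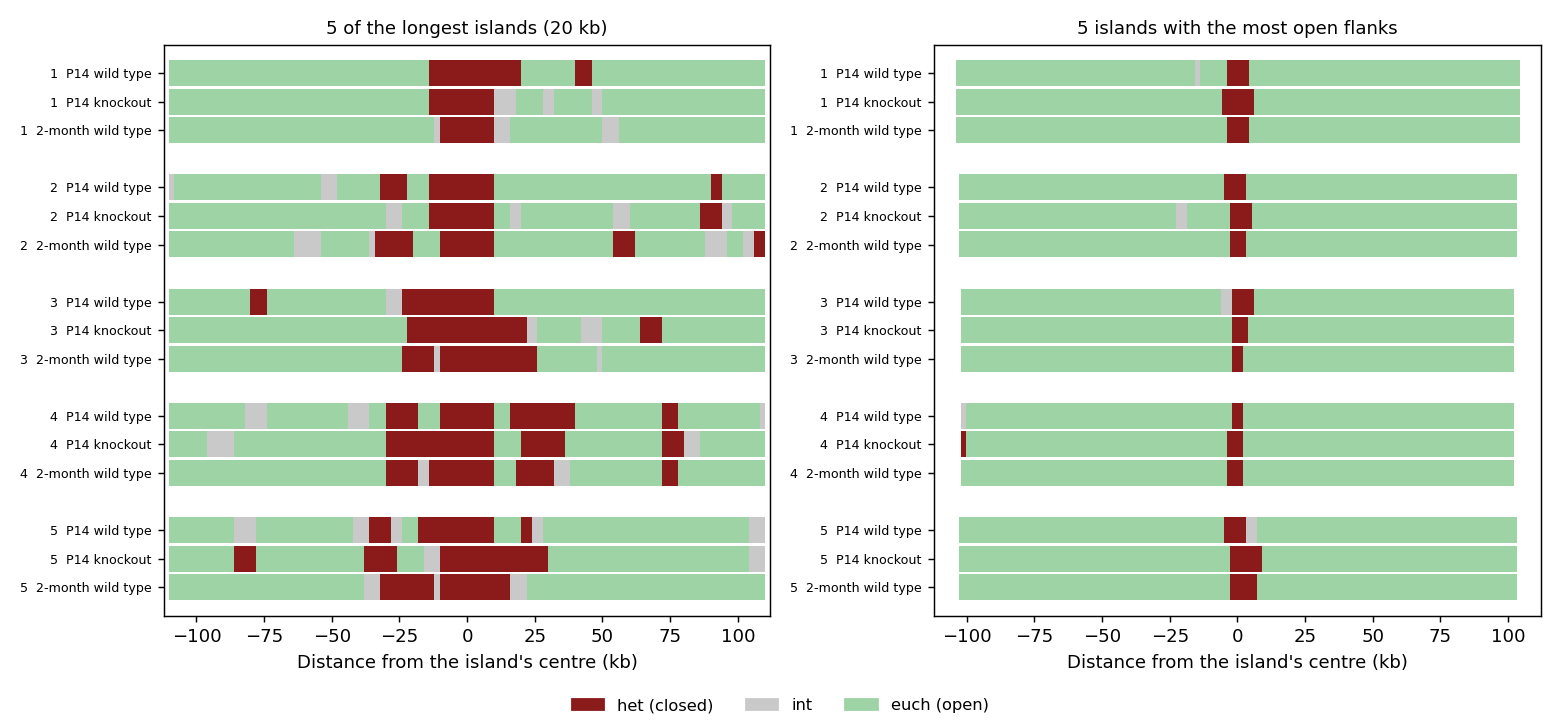
Class calls around 5 of the 9 islands of 20 kb, those with the most open flanks (left) and the 5 with the most open flanks (right), in the order of the text, with 1 row for each map and the distance from the island's centre in kb. Dark red is het, grey is int and green is euch. The long islands have other het pieces nearby. The islands on the right stand nearly alone in open chromatin because they were picked for open flanks.

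At the threshold the choice was fine-grained. A flank of 100 kb holds 50 bins, so shares move in steps of 2 points, and 128 islands had their lowest flank share exactly at 60%. Just inside lay chr1:20516001-20522000, with lowest shares of 60% in P14 wild type, 60% in the knockout and 66% at 2 months. Also inside were chr1:21170001-21184000, with 60%, 84% and 82%, and chr1:50336001-50338000, with 66%, 60% and 60%. Just outside, at 58%, lay chr1:78570001-78572000 with 64%, 58% and 96%, chr1:106914001-106922000 with 66%, 58% and 78%, and chr1:149260001-149266000 with 62%, 58% and 58%. In all, 214 islands had a lowest share of 60 to 62%, and 92 short runs missed the rule with one of at least 58%. The median lowest share was 68%, and 87 islands exceeded 80%.

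Around the constant cores the closed domain was widest in P14 wild type and narrowest at 2 months. The mean length of the het domain that held an island was 15.5 kb in P14 wild type, 13.04 kb in the knockout and 11.7 kb at 2 months. The medians were 12, 12 and 10 kb. The upper quartile was 20 kb in P14 wild type, 16 kb in the knockout and 14 kb at 2 months, and the lower quartile was 8 kb in each. Islands in a domain longer than 20 kb numbered 163 in P14 wild type, 99 in the knockout and 63 at 2 months. The flank rule limits these counts, and none are given here for short runs outside open surroundings. The island filled the whole het domain in 149 cases (20.0%) in P14 wild type, 189 (25.4%) in the knockout and 254 (34.1%) at 2 months. Of the other short runs, those without open flanks, 24.5%, 16.7% and 14.6% filled the domain, in the same order of maps. Their mean het domain was 33.8, 42.3 and 71.9 kb long. Both orders are the reverse of those of the islands. The flank rule split the short runs into these sets and bounds how far a domain can reach. The contrast is thus in part set by the choice.

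Counted island by island, the domain at 2 months was shorter than in P14 wild type for 436 islands (58.6%), longer for 187 (25.1%) and equal for 121. For the other 25340 short runs het in all 3 maps, it was shorter in 37.4% and longer in 58.5%. In the knockout the domain was shorter than in P14 wild type for 374 islands (50.3%), longer for 247 (33.2%) and equal for 123. The other runs gave 43% shorter and 51.4% longer. These counts come from calls that the rule used, and they turn with the map in which open flanks are required, an alternative added after the data had been seen. With open flanks asked of the P14 wild-type map alone, 41.1% of 1578 islands had a shorter and 46.7% a longer domain at 2 months, and 41.8% had a shorter and 44.6% a longer one in the knockout. With open flanks asked of the 2-month map alone, 71.2% of 2389 islands had a shorter and 17.5% a longer domain at 2 months. The narrowing at 2 months and in the knockout is thus a property of these 744 islands as chosen, and its direction was not the same under every choice of map.

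**Figure D2:**
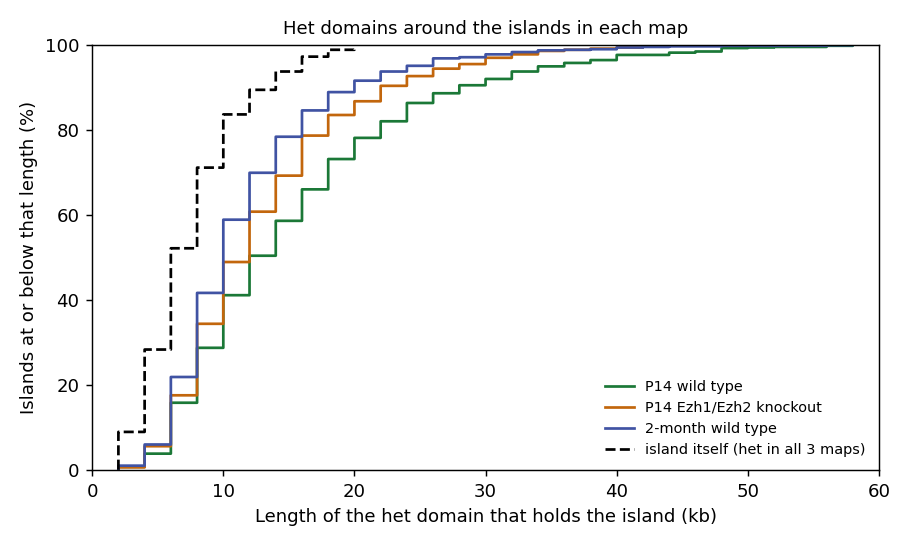
Cumulative share of the 744 islands (vertical axis, %) by the length of the het domain that held them in each map (horizontal axis, kb), with the length of the island itself as a dashed line. The 2-month curve lies to the left of the P14 wild-type curve, with medians of 10 and 12 kb and means of 11.7 and 15.5 kb.

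Single islands ran against the bulk. At chr6:52022001-52026000 the het domain measured 4 kb in P14 wild type, 6 kb in the knockout and 34 kb at 2 months, the largest relative gain with age. At chr11:48982001-48988000 it measured 6, 34 and 32 kb, and at chr18:62148001-62154000 6, 10 and 32 kb. These 3 gained most at 2 months relative to P14 wild type, and at the first and the last the knockout domain stayed within 4 kb of that of P14 wild type. The largest relative losses at 2 months left a single closed bin. They were at chr14:35390001-35392000, with 28 kb in P14 wild type, 20 kb in the knockout and 2 kb at 2 months, at chr3:97950001-97952000, with 18, 16 and 2 kb, and, tied for the third place, at chr1:196882001-196884000, with 14, 10 and 2 kb, and chr10:98526001-98528000, with 14, 22 and 2 kb. At the last of these the knockout domain was longer than that of P14 wild type.

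In the knockout the largest relative gain was shared by 2 islands. At chr3:115620001-115622000 the het domain measured 2 kb in P14 wild type, 16 kb in the knockout and 4 kb at 2 months, and at chr4:16022001-16026000 it measured 4, 32 and 14 kb. Next was chr13:113510001-113516000, with 6, 36 and 14 kb. At these 3 islands the 2-month domain was shorter than that of the knockout. The largest relative losses in the knockout were at chr1:159024001-159030000, with 40 kb in P14 wild type, 6 kb in the knockout and 40 kb at 2 months, at chr6:86576001-86578000, with 50, 8 and 16 kb, and at 4 islands tied for the third place. These were chr6:54304001-54312000, with 48, 8 and 12 kb, chr11:100278001-100286000, with 48, 8 and 8 kb, chr14:71020001-71026000, with 36, 6 and 8 kb, and chr16:96014001-96018000, with 24, 4 and 14 kb. The island at chr1:159024001-159030000 was closed over 40 kb at both ages of the wild type and reduced to its core in the knockout alone. Each of these lengths comes from 1 pooled map, with no replicate check.

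Closed calls faded within a few kb of an island in every map. In the bin next to the island, 56.7% of edges were het in P14 wild type, 49.8% in the knockout and 40.1% at 2 months. At 10 to 12 kb the shares were 20.1%, 14.1% and 9.74%, and at 40 to 42 kb they were 9.14%, 6.92% and 4.44%. The median euch share of a 100 kb flank was 78% in P14 wild type, 84% in the knockout and 88% at 2 months. Both flanks together were more open at 2 months than in P14 wild type for 572 islands and less open for 149. In the knockout they were more open than in P14 wild type for 471 islands and less open for 239. The rule used these flank shares, and bins with open flanks in general held less het in the same order of maps, as given above, so the order is not particular to islands. These same flanks, on which the rule selected, held fewer other closed domains at 2 months. There were on average 2.01 other het domains within 100 kb of an island in P14 wild type, 1.71 in the knockout and 1.06 at 2 months. The number of islands with none was 66, 114 and 261, in the same order. No such counts are given here for bins with open flanks in general, so these are not shown to be particular to islands.

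**Figure D3:**
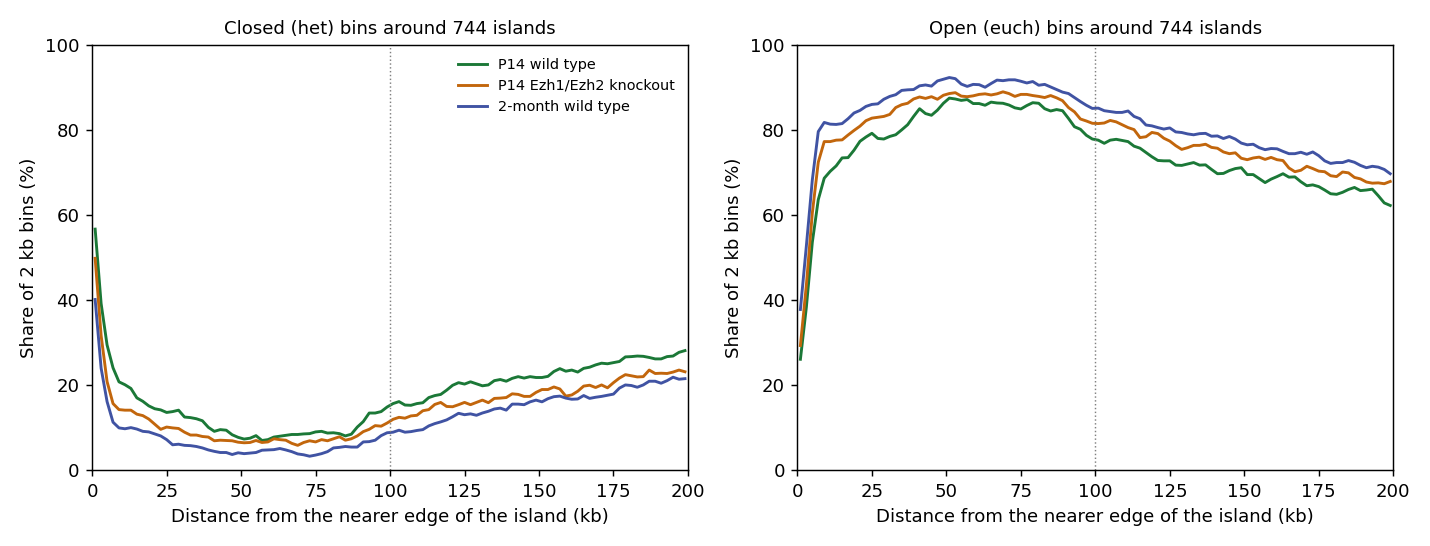
Share of 2 kb bins called het (left) and euch (right) by distance in kb from the nearer edge of an island, over both sides of 744 islands, for each map. The dotted line marks the 100 kb within which the rule asked for euch. In the bin next to the island het covers 56.7% of edges in P14 wild type, 49.8% in the knockout and 40.1% at 2 months, and the order is the same at 10 to 12 kb.

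Beyond the flanks that the rule used, the surroundings of the islands were close to those of any bin with open flanks. At 100 to 200 kb from an island, euch covered 70.1% of bases in P14 wild type, 74.1% in the knockout and 77.1% at 2 months. Around all bins with open flanks the shares were 70.9%, 74.7% and 78.9%, and over the whole autosomes 42.7%, 42.4% and 43.0%. At 500 kb to 1 Mb euch covered 49.6%, 51.1% and 51.4% around the islands, and 50.1%, 51.5% and 52.7% around bins with open flanks. The nearest run of at least 100 kb that was het in all 3 maps lay at a median distance of 2209 kb from an island and 2372 kb from a bin with open flanks. The islands were thus found at about the same distance from long closed blocks as open chromatin of this kind in general.

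The edges of the islands were placed more alike in the 3 maps than those of other short runs. The het domain ended at the same bin in all 3 maps at 209 of 1488 edges (14.0%). Among the other short runs this held for 3.84% of edges, and among runs over 20 kb for 3.69%. The median spread of an edge over the 3 maps was 4 kb for islands and 18 kb for the other short runs. In 19 islands (2.55%) both edges were the same in all 3 maps, against 0.308% of the other short runs. With open flanks asked of the P14 wild-type map alone, the share of island edges at the same bin was 9.70%. The rule bounds how far a closed domain can reach into the flanks, so a smaller spread around islands is in part set by the choice.

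The longest island with fixed edges was 18 kb, at chr8:39882001-39900000, with lowest flank shares of 64% in P14 wild type, 68% in the knockout and 80% at 2 months. Next came islands of 10 kb at chr18:10538001-10548000, with 84%, 94% and 92%, at chr17:32982001-32992000, with 82%, 86% and 94%, and at chr7:14472001-14482000, with 76%, 90% and 80%. Of the islands of 8 kb with fixed edges, the one with the most open flanks, at chr18:10230001-10238000, had 82%, 94% and 92%. It and the island of 10 kb on chromosome 18 lay within 1 Mb of each other.

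Most edges of the het domains around islands met open chromatin without an intermediate step. The class next to the het domain was euch at 963 of 1488 edges in P14 wild type, 964 in the knockout and 1003 at 2 months. It was int at 35.3%, 35.2% and 32.6% of edges. Other het domains of 2 to 20 kb had int at 47.2%, 48.6% and 53.9% of their edges. Where there was an int step, its median length was 4 kb in each map, and euch lay behind it in 83.2%, 85.7% and 87.2% of cases. Int counts against the flanks in the rule, which favours edges without it. Euch lay directly on both sides of 303 of the 744 islands in P14 wild type, 309 in the knockout and 340 at 2 months, so most islands had int on at least 1 side.

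Islands occurred on every autosome and in part close together. There were 0.301 islands per Mb of autosome, from 0.210 on chromosome 7 to 0.408 on chromosome 18, and 1.78 per Mb of bins with open flanks. By the latter measure chromosomes 7 and 9 stood highest, both at 2.33 with 32 and 48 islands, and chromosome 19 lowest, at 0.892 with 15 islands. Chromosome 19 had the largest part of its length with open flanks, 27.4%, and chromosome 7 the smallest, 9.01%. The median distance to the nearest other island was 484 kb. Another island lay within 10 kb for 45 islands and within 100 kb for 182 (24.5%). Such distances are not given here for bins with open flanks in general. The closeness is thus not shown to be particular to islands. The islands sat in 728 separate het domains in P14 wild type, 734 in the knockout and 740 at 2 months, so 31, 20 and 8 islands shared a domain with another one.

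**Figure D4:**
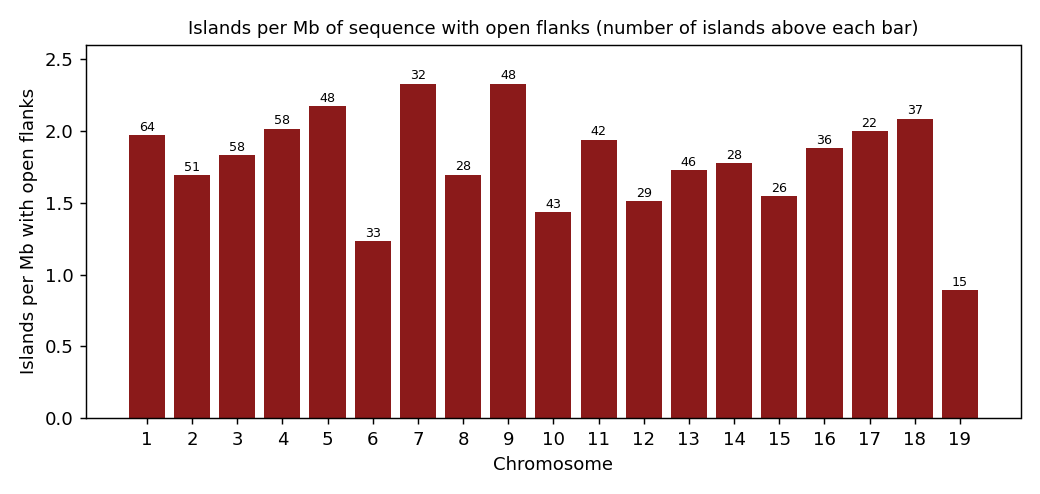
Islands per Mb of bins with at least 60% euch on both sides in all 3 maps, by autosome, with the number of islands above each bar. Chromosomes 7 and 9 are highest at 2.33 per Mb and chromosome 19 is lowest at 0.892.

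The richest window of 1 Mb was chr7:14000001-15000000, with 8 islands of 4 to 12 kb. Euch covered 71.2% of it in P14 wild type, 72.6% in the knockout and 78.2% at 2 months. In 3 of its islands, at chr7:14356001-14362000, chr7:14472001-14482000 and chr7:14576001-14582000, the closed domain was identical in all 3 maps, 6, 10 and 6 kb long. At chr7:14736001-14748000 the domain was 20 kb long in P14 wild type, 16 kb in the knockout and 12 kb at 2 months. There were 2 further windows with 6 islands each. In chr10:101000001-102000000 the longest island was 16 kb and euch covered 73.8%, 75% and 71% of the window, in the same order of maps. In chr13:16000001-17000000 the longest was 14 kb and euch covered 82.0%, 82.2% and 83.0%. Of the windows with any island, 379 held 1, 102 held 2, 31 held 3 and 12 held 4.

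How constant small closed domains are in open chromatin can be asked without choosing on all maps. For this, het domains of 2 to 20 kb with open flanks were taken from 1 map alone, and a domain was called kept in another map when at least 50% of its bases were het there. The outcome depended on which map they were taken from. P14 wild type had 4945 such domains. In the knockout 2365 of them (47.8%) were kept, and at 2 months 1579 (31.9%). All these comparisons reuse the same 3 maps. Small het domains of P14 wild type without open flanks were kept in 68.5% of cases in the knockout and in 63% at 2 months. Of the domains with open flanks, 44.4% had no het base in the knockout and 63.4% had none at 2 months. Without open flanks these shares were 23.4% and 31.6%. Mostly euch were 39.5% in the knockout and 53.6% at 2 months with open flanks, against 21.5% and 27.7% without.

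The 5062 domains of this kind in the knockout were kept in P14 wild type in 64.1% of cases and at 2 months in 34.4%. Without open flanks the shares were 69.2% and 64.8%. The 3241 domains of the 2-month map were found in P14 wild type in 75.4% of cases and in the knockout in 67.2%. Without open flanks the shares were 68.4% and 68.1%. Small closed domains in open chromatin of the adult map were therefore called closed at P14 more often than the reverse, 75.4% against 31.9%. For small domains without open flanks the gap was smaller, 68.4% against 63%. With open flanks the 2 directions start from unlike sets, 3241 and 4945 domains, and are read in maps with unlike het levels. The flanks of the 2-month domains were 24.6% het in P14 wild type. Those of the P14 wild-type domains were 12.7% het at 2 months. How much of the gap goes with these levels was not tested. In the 6 directions, domains with open flanks were kept less often than other small domains in 5, and more often in 1, from 2 months to P14 wild type. These sets were not matched for length. For knockout domains of 2 to 4 kb read in P14 wild type, 54.4% were kept with open flanks and 60.3% without. At 18 to 20 kb the shares were 79.5% and 78.8%. The comparison of the 2-month domains in the knockout differed by only -0.900 percentage points, and its sign turned when all bases of a domain had to be het or when domains were limited to 10 kb.

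The kept shares stood above the closed level around the domains. Of the bases of P14 wild-type domains with open flanks, 46.2% were het in the knockout, where 13.4% of their 100 kb flanks was het. At 2 months 31.5% of the bases were het, with 12.7% in the flanks. For 2-month domains read in P14 wild type the values were 72.4% and 24.6%. For domains without open flanks the distance was smaller. At 2 months 62.4% of the bases of such P14 wild-type domains were het, with 51.9% in their flanks. The sets were split by the euch share of these flanks in the map of origin, so this contrast is in part set by the choice.

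The more open the surroundings at P14, the lower was the share of small closed domains kept at 2 months. For P14 wild type this fall began at 71.4%, where the less open flank was under 20% euch. It was thus not particular to open flanks. Domains grouped by flank share were not matched for length or for the het level around them at 2 months. Of P14 wild-type domains whose less open flank was 60 to 70% euch, 39.1% were kept at 2 months, and of those with 90% or more, 20.9%. In the knockout these shares were 52.8% and 39.7%. For domains taken from the knockout map and read at 2 months the shares were 41.1% and 25.0%. Knockout domains read in P14 wild type fell less, from 66.8% to 56.3%. Domains taken from the 2-month map showed no such fall, with 74.98% and 76.4% kept in P14 wild type and 67.0% and 69.2% in the knockout. Length went the other way. Of P14 wild-type domains with open flanks, 21.6% of those of 2 to 4 kb and 43.8% of those of 18 to 20 kb were kept at 2 months, and 34.2% and 61.3% in the knockout. Without open flanks 48.7% and 75.5% were kept at 2 months.

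**Figure D5:**
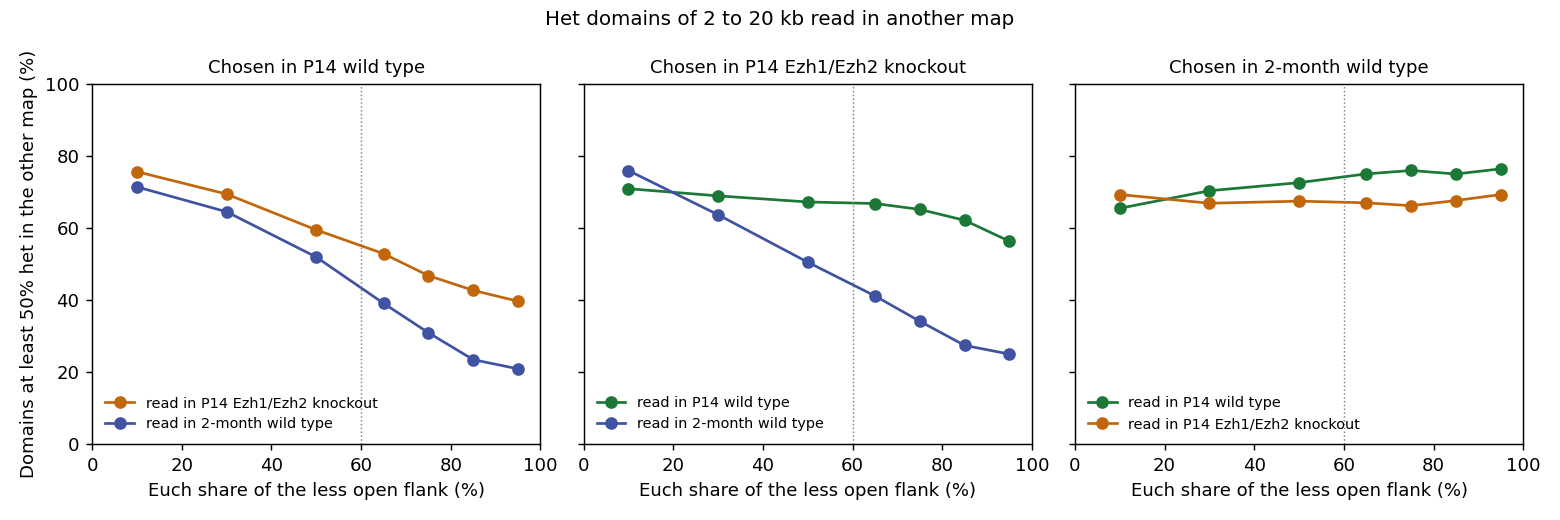
Share of het domains of 2 to 20 kb in 1 map that were at least 50% het in another (vertical axis, %), by the euch share of the less open of the 2 flanks in the map they were taken from (horizontal axis, %). Points to the right of the dotted line at 60% are domains with open flanks. Domains of both P14 maps are kept less at 2 months the more open their flanks, down to 20.9% for P14 wild type, while those of the 2-month map stay between 65.4% and 76.4%.

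Small closed runs found in 2 maps were also read in the third, a comparison added after the data had been seen. Of 2099 runs of 2 to 20 kb that were het with open flanks in both P14 maps, 39.4% were kept at 2 months, against 74.6% of such runs without open flanks. Of 1432 found in the knockout and at 2 months, 84.6% were kept in P14 wild type, against 76.9%. Of 1106 found in both wild-type maps, 72.9% were kept in the knockout, against 81.9%. The 2-month map was thus the one in which closed islands shared by the other maps were most often missing. It also had the fewest het calls among bins with open flanks, 2.74% against 7.67% in P14 wild type and 5.72% in the knockout. Runs without open flanks were kept least at 2 months as well. How much of the low kept share goes with that lower het level was not tested.

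Small open islands in closed chromatin, chosen by the mirror rule, numbered 680, also with a median length of 6 kb. The euch domain around them was 11.8 kb long on average in P14 wild type, 12.2 kb in the knockout and 13.3 kb at 2 months, with a median of 10 kb in each map. It was longer at 2 months than in P14 wild type for 49.3% of them and shorter for 37.8%. In the knockout it was longer than in P14 wild type for 39.6% and shorter for 41.8%. These lengths come from the calls that the mirror rule used. Such shares are not given here for other short runs called euch in every map. The longer domains at 2 months are thus not shown to be particular to open islands. No count of islands, open or closed, could be checked in replicates.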

How the data were processed

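Per the labels, 15 samples of mouse hepatocytes were profiled by srHC-seq, and the submitters' processing notes name bcl2fastq 2.19.0.316, STAR 2.4.2a, bedtools and the build mm9. The domain caller and its thresholds are not given in the sources used here. The deposited files are 9 lists of intervals, 1 for each class and group, and the authors' other columns hold starts, ends and a score that is 0 throughout. The sample descriptions name each list under all 5 samples of its group, except that 4 of 5 samples of the 2-month group name the euch list, so each map was read as a pool of its group.

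Calls were read as 2 kb bins on the 19 autosomes, without partial last bins, with Python 3.11.15, NumPy 2.4.6, pandas 2.3.3, SciPy 1.17.1 and Matplotlib 3.10.9. Positions are 1-based. Flanks were 100 kb on each side. The code was tested on simulated data with planted islands. Regions were named by rules of length, flank openness, fixed edges and relative domain length. The members, lists and rules were chosen with earlier results of these data known. Alternatives varied the flank share, flank length, pooling, run length, joining of runs and chromosomes. Genes and sequence were not analysed here because the reference tables at hand are of another build.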

Additional observations from a re-analysis of the deposited data

Results flagged for a closer look

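Chromosome X was outside the main values because the groups differ in their mix of sexes. By the same rule it held 90 islands, 0.540 per Mb, with a median length of 6 kb. The het domain around them had a mean length of 13.5 kb in P14 wild type, 11.3 kb in the knockout and 11.1 kb at 2 months. It is given here because it is a signal outside the main measurement. There are no control samples to set it against.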

How the results depend on the processing

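No paired analysis was possible because each map pools the replicates of its group, which also prevents leaving 1 out. The number of islands, 744, lay between 680 and 729 when each autosome was left out. It was 1400 with a flank share of 50%, 326 with 70%, 1712 with both flanks pooled, and 1578, 1868 and 2389 with open flanks asked of P14 wild type, knockout or 2 months alone. The share of islands with a shorter minus that with a longer het domain at 2 months than in P14 wild type, 33.5 percentage points, was -5.64 with open flanks asked of P14 wild type alone and 53.7 with 2 months alone. For the knockout against P14 wild type the value of 17.1 was 8.90 with a flank share of 70%, 10.4 with flanks of 50 kb, 25.8 with flanks of 200 kb, and -2.72, 30.2 and 27.3 with open flanks asked of P14 wild type, knockout or 2 months alone. The cause of these moves was not tested. The share of edges at the same bin, 14.0%, was 12.25% with a flank share of 50%, 17.5% with 70%, 17.7% with flanks of 50 kb, 12.0035% with both flanks pooled, and 9.70%, 11.3% and 10.8% with open flanks asked of P14 wild type, knockout or 2 months alone.

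Kept shares followed the definition. With any het base counted, P14 wild-type domains were kept in 55.6% (knockout) and 36.6% (2 months), knockout domains in 71.3% (P14 wild type) and 39.5% (2 months), and 2-month domains in 82.7% (P14 wild type) and 75.9% (knockout). With all bases required, the shares were 24.9%, 17.6%, 38.8%, 17.7%, 52.6% and 41.7%. With domains up to 10 kb they were 42.9%, 28.2%, 59.1%, 29.3%, 72.1% and 64.3%. With a flank share of 50% the first was 50.5%, the second 37.7% and the fourth 38.1%. With 70% the first 4 were 44.3%, 26.9%, 62.4% and 30.1%. With chromosome X the fourth was 35.8% and the fifth 73.9%. Open minus other flanks, for knockout domains in P14 wild type, was -5.08 points and -2.24 with all bases required. For 2-month domains in P14 wild type it was 7.06, with 3.81 for any base and 11.1 for all bases. For 2-month domains in the knockout it was -0.900, with -2.11 for any base, 3.45 for all bases and 2.79 for domains up to 10 kb. Each is 1 pooled map of unknown depth.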
